A study of Epinephelus fuscoguttatus x Epinephelus lanceolatus with 9 samples.

Results

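Intestinal RNA of the pearl gentian grouper, the aquaculture cross Epinephelus fuscoguttatus x Epinephelus lanceolatus, was compared between the herb group, labelled Drug, and the group labelled SBM. The libraries were chosen by their labelled group alone: 3 Drug and 3 SBM libraries out of 9 RNA-seq libraries in all, each read across 22344 genes. The other 3 libraries, labelled FM, served to estimate the spread and as a reference level. The herb named in the title is Lithospermum erythrorhizon, whose red root holds shikonin pigments. SBM and FM usually abbreviate soybean meal and fish meal in aquaculture, though the labels leave them as letters. Neither the herb dose, the feeding time, the age of the fish, the gut segment nor the hour of sampling is stated, and it is not stated whether the Drug fish were also fed the SBM diet. The replicates may be separate fish, pools or repeat preparations, because no label says which, and a p-value then reflects variation among libraries that could be technical.

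Soybean meal is a common substitute for fish meal in carnivorous fish, and it is known for irritating the hindgut and disturbing fat and sterol uptake. The intestinal lining renews itself from dividing cells at the base of its folds, and enterocytes take up fat and small peptides, while the lysosome-rich enterocytes of fish take up whole proteins. Signalling systems named in the results are the Hippo pathway, whose effector YAP drives growth of epithelial progenitors, the Notch pathway, which steers intestinal cell fate, and the TOR and insulin pathway, which couples nutrients to protein synthesis.

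Total counts were 34.1 to 35.1 M in Drug and 32.9 to 35.5 M in SBM, and all 9 libraries held a count in 20150 to 20588 genes. Mitochondrially encoded genes took 3.65% to 4.22% of counts in Drug and 2.62% to 4.01% in SBM. The SBM libraries varied more than the Drug libraries, with a median SD of log2 CPM over genes of 0.342 against 0.232 (CPM, counts scaled by the TMM-adjusted library total). The median distance of a library from the mean of the other libraries of its group was 0.448 and 0.387 log2 units in SBM 1 and SBM 2, and 0.217 to 0.25 in SBM 3 and the Drug libraries. SBM 1 and SBM 2 therefore stood apart, and values without them are given beside many of the results and list medians that they move. FM 3 also stood apart: its summed level of hepatocyte genes was 24300 CPM, against 54.3 to 122 CPM in the other 8 libraries, and it entered the estimate of the spread. The enterocyte fatty acid-binding protein fabp2 was at 5111 to 6598 CPM in Drug compared with 782 to 2994 CPM in SBM, so every library carried its transcript at high level.

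Few genes passed the test, and all were lower in Drug. Of 17731 genes tested, 7 (0.0395%) fell in Drug and 0 (0.0%) rose at an adjusted p under 0.05 by edgeR's quasi-likelihood test with Benjamini-Hochberg adjustment. At an unadjusted p under 0.05 there were 2327 genes (13.1%), of which 1414 were lower (7.97%) and 913 higher (5.15%) in Drug. DESeq2 called 614 of the 15965 genes to which it gave an adjusted p (3.85%), 412 lower (2.58%) and 202 higher (1.27%), and its calls included the 7. The 7 fallers were a kinase of the translation initiation factor eIF4E, the effector of the Hippo pathway, a Notch target, an oxidative stress gene, a factor of mRNA decay and a pair of genes with no name.

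Among the 7, the kinase gene mknk2b showed the largest fall. Its product belongs to the MNK family, which phosphorylates eIF4E, the factor that binds the mRNA cap. It stood at 47.1, 134 and 115 CPM in Drug 1, 2 and 3, and at 881, 711 and 658 CPM in SBM 1, 2 and 3. Every Drug library lay far below every SBM library, and the 198, 207 and 218 CPM of the FM libraries lay between them. The group means were 98.7 ± 45.7 CPM in Drug against 749.7 ± 116 CPM in SBM (SD, n = 3), a 7.59-fold fall (log2 fold change -2.92, SE 0.35, edgeR adjusted p = 0.0426).

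The growth effector yap1, which carries the output of the Hippo pathway into the nucleus, was at 9.29, 10.9 and 10.5 CPM in the Drug libraries. In SBM it was at 24.3, 32.4 and 28.1 CPM. The groups were well separated and each was tight, and FM, at 14.3, 11.2 and 15.3 CPM, stayed above Drug. The fall was 2.77-fold (log2 fold change -1.47, SE 0.18, edgeR adjusted p = 0.0426).

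The repressor hey1, a direct target of Notch signalling in vertebrates, was a gene of low level, at 2.02, 2.37 and 2.55 CPM in Drug compared with 9.59, 7.44 and 10.4 CPM in SBM. No library of either group came near the other group, and FM lay between at 5.45, 6.28 and 4.30 CPM. The fall was 3.95-fold (log2 fold change -1.98, SE 0.23, edgeR adjusted p = 0.0426).

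The gene osgn1, known from mammals as an oxidative stress induced growth inhibitor, was at 24.8, 33.7 and 25.8 CPM in Drug against 117, 89.8 and 111 CPM in SBM. Its FM values of 74.7, 63.0 and 55.0 CPM again fell between non-overlapping groups. The fold was 3.77 (log2 fold change -1.91, SE 0.19, edgeR adjusted p = 0.0426). The gene pnrc2, a coactivator of nuclear receptors that also takes part in mRNA decapping, was at 167, 201 and 202 CPM in Drug, 561, 428 and 494 CPM in SBM and 389, 375 and 346 CPM in FM. It was the second most abundant of the 7 in SBM, and its groups did not overlap either (2.60-fold, log2 fold change -1.38, SE 0.15, edgeR adjusted p = 0.0426).

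LOC125897815 was at 11.7, 7.98 and 8.60 CPM in Drug against 34.4, 28.0 and 27.5 CPM in SBM, a 3.18-fold fall (log2 fold change -1.67, SE 0.20, edgeR adjusted p = 0.0426). LOC125900504 was at 6.28, 5.46 and 7.87 CPM in Drug compared with 18.2, 22.8 and 18.9 CPM in SBM, a 3.05-fold fall (log2 fold change -1.61, SE 0.20, edgeR adjusted p = 0.0426). Neither has a name in the deposited tables, and neither had overlapping groups. For LOC125900504 the FM libraries, at 31.8, 33.8 and 24.4 CPM, lay above all SBM libraries. For all 7 genes every FM library was above every Drug library, and for 5 of them every FM library was also below every SBM library.

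**Figure D1:**
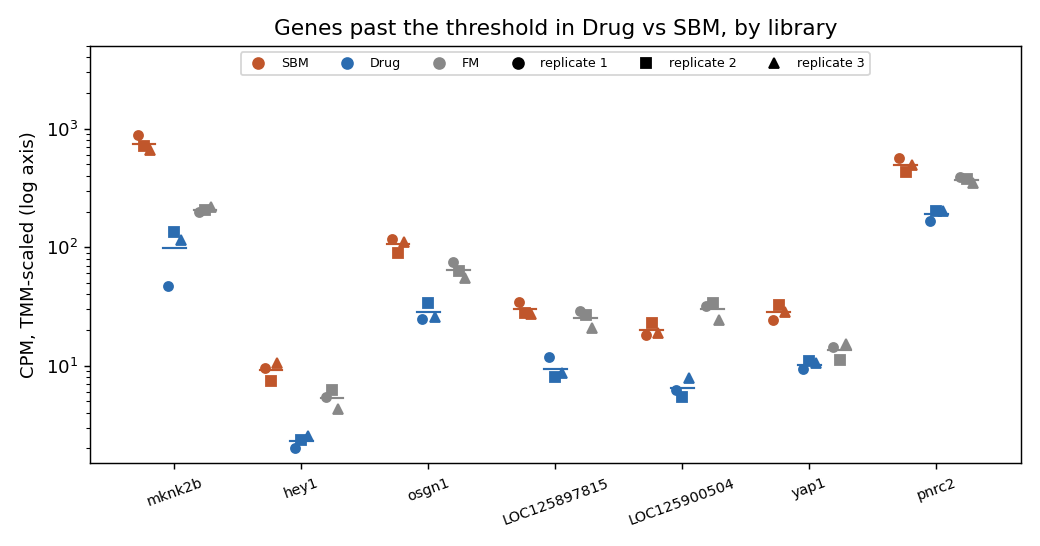
CPM after TMM scaling (log axis) of the 7 genes past the threshold in each of the 9 libraries, with a horizontal line at each group mean and the marker shape giving the replicate number. The Drug points lie below the SBM and FM points of the same gene in all 7 cases, from 2.02 CPM (hey1, Drug 1) to 881 CPM (mknk2b, SBM 1).

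Whether the 7 genes passed the threshold depended on which libraries were fitted, including the FM libraries, which are not part of the contrast. The log2 fold changes of the 7 stayed negative in all 18 other settings tried. They ranged from -3.20 to -2.59 for mknk2b, from -1.46 to -1.26 for pnrc2 and from -2.10 to -1.25 for hey1. Without any 1 of Drug 2, Drug 3, SBM 2, SBM 3 or an FM library 0 genes passed, without Drug 1 only mknk2b passed, and without SBM 1 there were 36 calls, 31 lower and 5 higher, that included all 7. The fit on the 6 Drug and SBM libraries alone called 0 genes and had 2162 at an unadjusted p under 0.05.

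**Figure D2:**
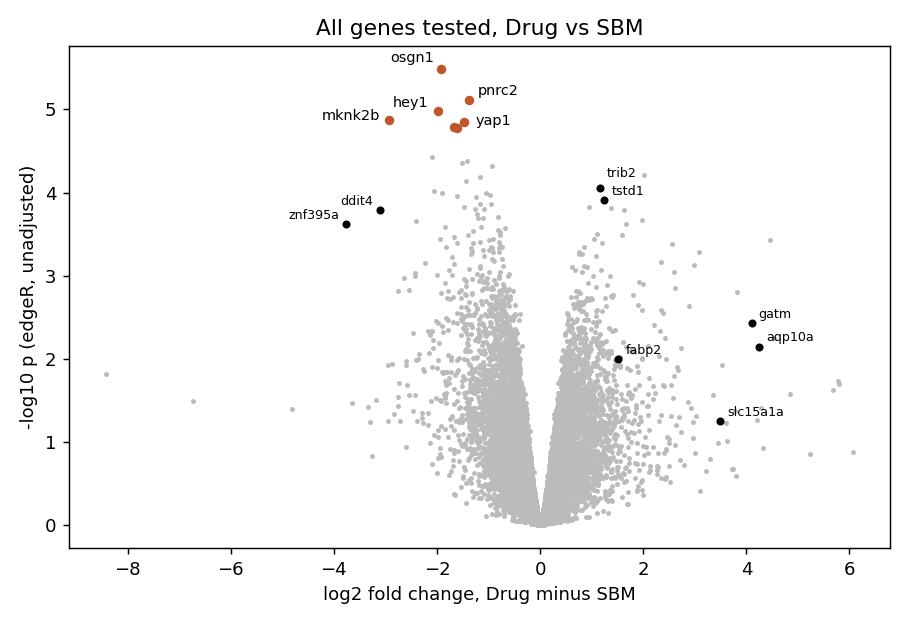
Log2 fold change (Drug minus SBM) against -log10 of the unadjusted p for the 17731 genes tested, with the 7 genes past the adjusted threshold in orange and 8 other genes of the text in black. All orange points lie on the negative side, at log2 fold changes from -2.92 to -1.38.

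A wider set of genes separated the groups, most of them without passing. Drug and SBM libraries did not overlap in 3526 genes (19.9%), 1895 of them lower (10.7%) and 1631 higher (9.2%) in Drug. The 7 genes that passed are among them. With 3 libraries a group some genes separate without any group difference, and their share was not estimated. At an adjusted p under 0.1 there were 25 lower and 6 higher genes, including 7 with only a LOC number. The named genes lower in Drug with the next smallest p were a feedback inhibitor of growth factor receptors, a clock repressor, an elongation factor kinase, a cobalamin trafficking gene and a small GTPase.

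The receptor inhibitor errfi1a, which in mammals restrains the EGF receptor, was at 6.45, 14.5 and 8.72 CPM in Drug against 44.8, 46.2 and 36.2 CPM in SBM, with a log2 fold change of -2.10 (edgeR adjusted p = 0.0776). The kinase eef2k, which slows peptide elongation by phosphorylating elongation factor 2, was at 23.99, 37.3 and 38.9 CPM in Drug compared with 87.5, 103 and 97.1 CPM in SBM, with a log2 fold change of -1.52 (edgeR adjusted p = 0.0776). Groups without overlap were a condition for naming both genes. The FM libraries were closer to SBM, at 28.6 to 37.9 CPM for errfi1a and 85.2 to 114 CPM for eef2k. The clock repressor bhlhe40 had a log2 fold change of -1.43 (edgeR adjusted p = 0.0776), mmadhca, which handles vitamin B12 inside the cell, of -0.93 (edgeR adjusted p = 0.0777), and arl4aa of -1.17 (edgeR adjusted p = 0.0877). Without SBM 1, eef2k and mmadhca passed.

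In the other direction the smallest p belonged to genes of modest level. The pseudokinase trib2 was at 16.5, 14.9 and 15.4 CPM in Drug against 8.41, 5.97 and 6.61 CPM in SBM (log2 fold change 1.16, edgeR adjusted p = 0.0940). The sulfurtransferase tstd1 was at 49.1, 44.1 and 51.3 CPM in Drug compared with 18.1, 18.1 and 24.7 CPM in SBM (log2 fold change 1.25, edgeR adjusted p = 0.0940). In FM they were at 9.58 to 11.6 and 7.20 to 10.7 CPM, so Drug was the highest of the 3 groups for both. The clathrin adaptor subunit ap1s3a (log2 fold change 0.96), the nucleotide pool enzyme dctpp1 (1.38) and the endoplasmic reticulum prolyl isomerase fkbp7 (1.63) shared the adjusted p of 0.0940 by edgeR.

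The growth factor tgfb3 was at 33.5, 22.4 and 30.3 CPM in Drug against 12.3, 16.1 and 13.2 CPM in SBM, with a log2 fold change of 1.05 (edgeR adjusted p = 0.118). The nuclease ankle1 had a log2 fold change of 1.98, the glyoxylate reductase grhpra of 1.09, the Golgi membrane gene golm2 of 0.75 and the leucine zipper gene crebzf of 0.75, at adjusted p between 0.105 and 0.123 by edgeR. Drug libraries above the SBM libraries without overlap were a condition for naming all of these. Without SBM 1, trib2 and crebzf passed.

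The replicate numbers are repeated in each group, so each Drug library was also set against the SBM library of the same number, as the difference of log2 CPM. The labels do not say what a shared number means, and these differences are a description with no test. All 3 differences were negative in 3679 genes (20.7%) and positive in 3510 (19.8%). They were all below -1 in 120 genes (0.677%), 104 of them with no overlap between groups and 94 with a mean of at least 5 CPM in a group, and all above 1 in 93 genes (0.525%), of which 75 and 45 met those conditions. For mknk2b the differences were -4.22, -2.41 and -2.52 in order of number. For osgn1 they were -2.23, -1.41 and -2.11, for hey1 -2.22, -1.62 and -2.01, for pnrc2 -1.75, -1.09 and -1.29, and for yap1 -1.38, -1.57 and -1.42. The pair numbered 1 gave the largest fall in mknk2b, hey1, osgn1 and pnrc2, while the 3 pairs were nearly equal for yap1.

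**Figure D3:**
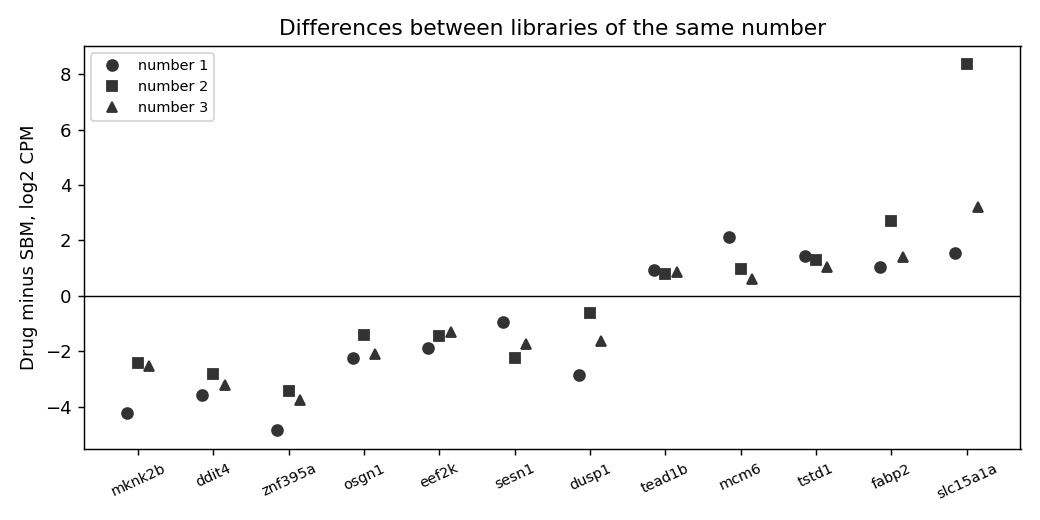
Differences of log2 CPM (Drug minus SBM) between libraries of the same replicate number for 12 genes described in the text, 1 marker shape per number. The markers of each gene lie on 1 side of 0, close together for tead1b (0.79 to 0.94) and far apart for slc15a1a (1.56 to 8.36). Differences beyond 1 on 1 side were a condition for naming znf395a and slc15a1a among the largest differences, and were met by mknk2b and ddit4 too. The fit with replicate number as a term, which favours close markers, also named tead1b, ddit4, osgn1 and tstd1.

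The largest consistent differences downwards included a TOR inhibitor and a kinase that starts autophagy. The transcription factor gene znf395a was at 5.83, 33.7 and 25.3 CPM in Drug compared with 170, 363 and 342 CPM in SBM (log2 fold change -3.75, edgeR adjusted p = 0.109). The TOR inhibitor ddit4 was at 20.1, 66.8 and 46.9 CPM in Drug against 240, 474 and 432 CPM in SBM (log2 fold change -3.10, edgeR adjusted p = 0.0940). In both genes the number 1 library was the lowest of its group in Drug and in SBM, and the same-number differences were -4.85, -3.43 and -3.75 for znf395a and -3.57, -2.82 and -3.20 for ddit4. The autophagy kinase ulk1a also had its lowest value of each group in number 1, at 0.767, 6.92 and 2.79 CPM in Drug compared with 9.45, 32.1 and 35.3 CPM in SBM (log2 fold change -2.88, edgeR adjusted p = 0.253).

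The unnamed transcript si:ch211-117c9.2 was at 7.19 to 22.6 CPM in Drug against 40.8 to 157 CPM in SBM (log2 fold change -2.65, edgeR adjusted p = 0.160), and the uncharacterized wu:fb55g09 had differences of -1.56, -1.64 and -1.08. The gene wu:fb55g09 was named by a fit with replicate number as a term, which favours differences that hardly vary with the number. So were sesn4, a stress-inducible sestrin (-1.42, -1.20 and -1.32), and ldhba, a lactate dehydrogenase subunit (-1.05, -1.05 and -1.12).

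The largest consistent differences upwards were those of a glycerol channel, a creatine enzyme, a peptide transporter, a lipoprotein gene and a triglyceride enzyme, and SBM 2 was the lowest SBM library for all 5. The aquaglyceroporin aqp10a was at 12.3, 68.1 and 34.4 CPM in Drug compared with 3.79, 0.0574 and 2.23 CPM in SBM, with differences of 1.69, 9.21 and 3.91 (log2 fold change 4.25, edgeR adjusted p = 0.224). The creatine synthesis enzyme gatm was at 15.3, 87.8 and 28.9 CPM in Drug against 3.65, 0.574 and 3.48 CPM in SBM (log2 fold change 4.10, edgeR adjusted p = 0.198). Separate groups were a condition for naming both genes, and the pair numbered 2 joined the highest Drug library to the lowest SBM library.

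The peptide transporter slc15a1a, which carries dietary di- and tripeptides, was at 51.5, 217 and 295 CPM in Drug compared with 17.4, 0.603 and 32.1 CPM in SBM (log2 fold change 3.49, edgeR adjusted p = 0.392). The lipoprotein gene apobb.1 was at 131, 548 and 946 CPM in Drug against 53.9, 1.52 and 65.3 CPM in SBM (log2 fold change 3.75, edgeR adjusted p = 0.595). SBM 2 was near 0 in both while the Drug libraries spread over several-fold. In FM 3 apobb.1 stood at 1295 CPM, against 3.37 and 0.0527 CPM in FM 1 and FM 2, and without FM 3 its adjusted p was 0.322 by edgeR. The triglyceride enzyme dgat2 was steadier, at 44.0, 85.2 and 76.9 CPM in Drug compared with 15.2, 13.6 and 16.7 CPM in SBM (log2 fold change 2.18, edgeR adjusted p = 0.302). The phosphatase gene mtmr7a, named by the fit with replicate number as a term, had differences of 2.02, 1.99 and 1.65.

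Gene lists were then read by their counts and medians beside those of all genes tested, whose median log2 fold change was -0.01, with 49.3% positive. Of all genes tested 10.7% were lower and 9.2% higher in Drug without overlap, and 0.0395% passed. List counts near these shares are no result about the members. The counts lower without overlap in the apoptosis, lysosome-rich enterocyte and matrix lists, among others, were near 10.7%. Genes known only by a LOC number are in no list, and members with symbols ending in a and b may be near-identical copies that share reads. In bulk tissue, fewer cells of a type and less RNA per cell cannot be told apart. No list held a called gene other than mknk2b, yap1, hey1 and osgn1.

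In cap-dependent translation, 1 of 18 genes fell (mknk2b) and the other 17 did not pass. Log2 fold changes were negative in 12 (median -0.37), with 7 lower and 1 higher without overlap. The translation repressor eif4ebp3l, which binds eIF4E, was at 29.3, 54.7 and 42.4 CPM in Drug against 62.2, 160 and 126 CPM in SBM (log2 fold change -1.46, edgeR adjusted p = 0.199). The helicase eif4a2 was at 48.5 to 57.6 CPM in Drug compared with 70.8 to 100 CPM in SBM (log2 fold change -0.71, edgeR adjusted p = 0.228). The list median was -0.18 without SBM 1, and -0.24 in the fit to log2(FPKM + 1).

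Of 77 cytosolic ribosomal protein genes none passed, but 75 had negative log2 fold changes and 63 were lower in every Drug library than in every SBM library. The size was small, with a median of -0.25 and quartiles of -0.29 and -0.21. The abundant subunit gene rps2 was at 3352, 3862 and 3105 CPM in Drug against 4486, 4845 and 4472 CPM in SBM (log2 fold change -0.42, edgeR adjusted p = 0.228). rplp2 and rps9, of the large and small subunit, had log2 fold changes of -0.39 and -0.37 (edgeR adjusted p = 0.269 and 0.295). The median log2(CPM + 1) of the list was 9.97, 10.05 and 9.81 in Drug, 10.13, 10.33 and 10.19 in SBM, and 9.96, 10.03 and 10.16 in FM. The median log2 fold change was negative in every fit tried, and -0.14 in both fits to FPKM, which is scaled by total counts alone. The separation was read after TMM scaling, with factors of 0.876, 0.982 and 0.952 in SBM 1, 2 and 3 and 0.999 to 1.021 in Drug. A lower factor raises the CPM of a library, and overlap on total counts alone was not counted.

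In TOR and insulin signalling none of 50 genes passed, 34 had negative log2 fold changes (median -0.27), and 12 were lower in Drug without overlap while 0 were higher. These 12, picked out by their lack of overlap, included the insulin receptor insra, its substrate irs2b and the kinases pik3cb, pdpk1b and eef2k. The rest were the TOR restraints tsc1a, akt1s1, ddit4 and sesn1, and the forkhead factors foxo1a, foxo3b and foxo4. The difference of pdpk1b was small (log2 fold change -0.18). Log2 fold changes were positive in 16 members, among them the sestrin sesn2 (0.75) and the kinase rps6kb1b (0.55), both with overlap. The substrate irs2b was at 6.11, 11.98 and 9.25 CPM in Drug compared with 29.6, 24.5 and 29.1 CPM in SBM (log2 fold change -1.60, edgeR adjusted p = 0.0940). The receptor insra was at 14.1, 23.3 and 24.02 CPM in Drug against 34.5, 57.1 and 51.3 CPM in SBM (log2 fold change -1.22, edgeR adjusted p = 0.184). The sestrin sesn1, which signals amino acid shortage to TOR, was at 68.6, 100 and 104 CPM in Drug compared with 131, 473 and 350 CPM in SBM (log2 fold change -1.81, edgeR adjusted p = 0.175), and it passed without SBM 1. The 3 forkhead factors had log2 fold changes of -0.72 to -0.86. The list median was -0.14 without SBM 2, and -0.08 and -0.09 when log2(FPKM + 1) and log2(FPKM + 0.1) were fitted.

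Autophagy and lysosome genes had negative log2 fold changes in 49 of 56, with a median of -0.33, 9 lower and 1 higher without overlap, and none past the threshold. The same-number medians were 0.02, -0.55 and -0.43. At the level of the list the groups overlapped: its median log2(CPM + 1) was 5.80 to 5.87 in Drug and 5.78, 6.19 and 6.31 in SBM. The lysosomal membrane protein gene lamp2 was at 616, 557 and 594 CPM in Drug against 795, 1242 and 1018 CPM in SBM (log2 fold change -0.79, edgeR adjusted p = 0.174). The autophagosome marker map1lc3b was at 63.1 to 78.0 CPM in Drug compared with 94.3 to 131 CPM in SBM (log2 fold change -0.75, edgeR adjusted p = 0.186). The proteasome list went the other way: 37 of 46 genes had positive log2 fold changes (median 0.32), 11 were higher and 0 lower without overlap, and none passed. Its member psmd10 was at 10.3, 7.89 and 10.7 CPM in Drug against 5.39, 5.77 and 5.66 CPM in SBM (log2 fold change 0.78, edgeR adjusted p = 0.204). The core subunit genes psma6a and psma8 had log2 fold changes of 0.49 and 0.50. The autophagy median was -0.47 without SBM 1 and -0.17 without SBM 2. It was -0.16 and -0.19 when log2(FPKM + 1) and log2(FPKM + 0.1) were fitted.

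**Figure D4:**
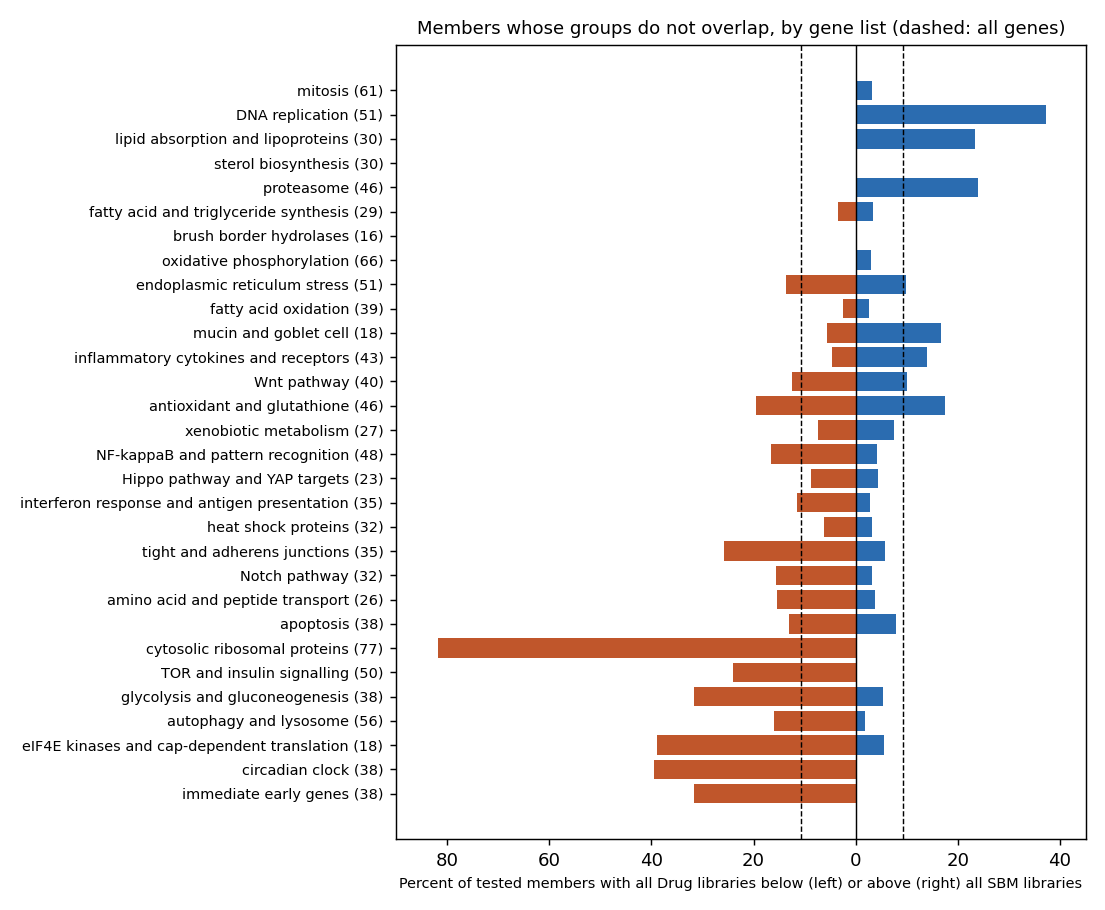
Percent of the tested members of each pathway list (number in brackets) whose Drug and SBM libraries did not overlap, lower in Drug to the left and higher to the right, with the values over all genes tested (10.7% lower and 9.2% higher) as dashed lines. After TMM scaling the cytosolic ribosomal proteins reach farthest to the left (63 of 77), and DNA replication (19 of 51) reaches farthest to the right.

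Of 38 glycolysis and gluconeogenesis genes none passed, 28 had negative log2 fold changes (median -0.31), and 12 were lower and 2 higher without overlap. The pyruvate dehydrogenase kinase pdk2a was at 8.07, 15.7 and 15.8 CPM in Drug compared with 32.5, 43.0 and 32.0 CPM in SBM (log2 fold change -1.44, edgeR adjusted p = 0.164). The enolase eno3 was at 471 ± 33 CPM in Drug against 741 ± 110 CPM in SBM (SD, n = 3) without overlap (log2 fold change -0.65, edgeR adjusted p = 0.175). The lactate dehydrogenase ldha was at 1273 CPM in SBM 1 and at 242 to 637 CPM in the other Drug and SBM libraries, and the glucose phosphatase g6pc3 was higher in Drug (log2 fold change 0.76, edgeR adjusted p = 0.175). The list median was -0.18 without SBM 2, and -0.12 and -0.14 when log2(FPKM + 1) and log2(FPKM + 0.1) were fitted.

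The circadian clock list had negative log2 fold changes in 30 of 38 genes (median -0.55), with 15 lower and 0 higher without overlap, and none past the threshold. The bHLH repressor bhlhe40 was at 19.4, 24.7 and 27.8 CPM in Drug compared with 72.1, 55.2 and 65.7 CPM in SBM. The D-box repressor nfil3 was at 5.60, 7.46 and 6.43 CPM in Drug against 19.7, 10.2 and 13.5 CPM in SBM (log2 fold change -1.15, edgeR adjusted p = 0.158), and the nuclear receptor gene nr1d4b was at 10.3 to 14.4 CPM in Drug compared with 18.8 to 47.8 CPM in SBM (log2 fold change -1.32, edgeR adjusted p = 0.175). SBM 1 was the highest library for all 3. Because the sampling hour is not given, time of day and group cannot be told apart for these genes, and the median was -0.24 and -0.34 when log2(FPKM + 1) and log2(FPKM + 0.1) were fitted.

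Immediate early genes, which answer within minutes to growth factors, stress or handling, had negative log2 fold changes in 32 of 38 (median -0.85), with 12 lower and 0 higher without overlap and none past the threshold. The SBM 1 library stood above all others. The list's median log2(CPM + 1) was 6.27 in SBM 1 and 4.54 to 5.15 in the other 8 libraries, fosab was at 520 CPM in SBM 1 and at 26.2 to 148 CPM in the other 5 Drug and SBM libraries, and the list's same-number medians were -1.46, 0.21 and -0.87. The phosphatase gene dusp1 was at 82.3, 146 and 96.9 CPM in Drug against 593, 223 and 302 CPM in SBM (log2 fold change -1.78, edgeR adjusted p = 0.174). The zinc finger repressor klf11b did not follow SBM 1: it was at 39.97, 50.6 and 45.3 CPM in Drug compared with 88.6, 91.5 and 87.8 CPM in SBM (log2 fold change -0.98, edgeR adjusted p = 0.0940). Without SBM 1 the list median was -0.37, without SBM 2 it was -1.03, and in the fit to log2(FPKM + 1) it was -0.54.

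Among stress genes, ppp1r15b, a regulatory phosphatase subunit, was at 53.7, 79.2 and 68.5 CPM in Drug against 426, 194 and 213 CPM in SBM (log2 fold change -2.05, edgeR adjusted p = 0.0940), and it passed without SBM 1. The endoplasmic reticulum stress list, which includes it, was mixed, with 28 of 51 positive (median 0.05) and 5 higher and 7 lower without overlap. The pseudokinase trib3 of that list was at 113 CPM in SBM 1 and at 11.8 to 30.3 CPM in the other 5 libraries. In the apoptosis list 30 of 38 were negative (median -0.19), with 3 higher and 5 lower without overlap. The p53 target tp53inp1 was at 14.4, 30.4 and 48.9 CPM in Drug compared with 108, 142 and 256 CPM in SBM (log2 fold change -2.43, edgeR adjusted p = 0.156), with FM at 11.2 to 24.2 CPM. The survival factor mcl1b was at 219 to 258 CPM in Drug against 434 to 742 CPM in SBM (log2 fold change -1.17, edgeR adjusted p = 0.118). The endoplasmic reticulum stress median was 0.14 without SBM 1 and -0.04 without SBM 2. The apoptosis median was -0.01 and 0.00 when log2(FPKM + 1) and log2(FPKM + 0.1) were fitted, and -0.05 without SBM 1.

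In the antioxidant list 1 of 46 genes fell (osgn1). The list median was 0.06 without SBM 1 and 0.08 in both fits to FPKM, where all genes had medians of 0.06 and 0.11. The whole list had 21 positive log2 fold changes (median -0.03), and 8 members were higher and 9 lower without overlap, osgn1 included. Peroxide and conjugation enzymes were found on both sides. The glutathione peroxidase gpx1b was at 582, 544 and 649 CPM in Drug compared with 403, 217 and 355 CPM in SBM (log2 fold change 0.86, edgeR adjusted p = 0.205), and the lipid peroxide reductase gpx4a was at 2179 to 2971 CPM in Drug against 452 to 1640 CPM in SBM (log2 fold change 1.28, edgeR adjusted p = 0.333). The microsomal glutathione transferase mgst3b was at 330, 295 and 336 CPM in Drug compared with 135, 103 and 192 CPM in SBM (log2 fold change 1.16, edgeR adjusted p = 0.221). Lower in Drug without overlap were gpx1a, another glutathione peroxidase (log2 fold change -0.56, edgeR adjusted p = 0.209), the transferase mgst2 (-0.52) and the peroxiredoxins prdx2, prdx4 and prdx6 (-0.15, -0.24 and -0.26). Further genes on the lower side were the thioredoxin inhibitor txnipa (536 to 652 CPM in Drug against 888 to 1774 CPM in SBM, edgeR adjusted p = 0.150) and the autophagy receptor sqstm1 (108 to 138 CPM in Drug compared with 215 to 412 CPM in SBM, edgeR adjusted p = 0.177).

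Beyond yap1 and hey1 no gene of the Hippo and Notch lists passed. In the Hippo list 1 of 23 fell (yap1), 15 were negative (median -0.10), and 1 was higher and 2 lower without overlap. The DNA-binding partner of YAP, tead1b, was on the opposite side to yap1, at 21.7, 24.4 and 28.0 CPM in Drug against 11.3, 14.1 and 15.4 CPM in SBM (log2 fold change 0.86, edgeR adjusted p = 0.145). The cofactor vgll4a, known from mammals to compete with YAP for TEAD, had a log2 fold change of -0.44 (edgeR adjusted p = 0.298). The YAP targets ccn1 and ccn2a were on the higher side with overlap (log2 fold changes 0.73 and 0.53, edgeR adjusted p = 0.359 and 0.495). In the same list ccn1l2 had a log2 fold change of 0.03 and amotl2a of -0.25, so the fall of yap1 was not shared by these genes as a set. In the Notch list 1 of 32 fell (hey1), 22 were negative (median -0.15), and 1 was higher and 5 lower without overlap. The Notch target her6 was at 9.07 to 11.06 CPM in Drug compared with 12.7 to 20.6 CPM in SBM (log2 fold change -0.65, edgeR adjusted p = 0.239), and the fringe glycosyltransferase rfng had a log2 fold change of 0.45 (edgeR adjusted p = 0.299). The Hippo median was 0.00 and 0.01 and the Notch median -0.03 and -0.05 when log2(FPKM + 1) and log2(FPKM + 0.1) were fitted. The medians of all genes were 0.06 and 0.11 in those fits. Without SBM 2 the Hippo median was -0.01.

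DNA replication genes lay higher in Drug, with positive log2 fold changes in 50 of 51 (median 0.61), 19 higher and 0 lower without overlap, and none past the threshold. The replicative helicase gave the clearest case. Its subunit genes mcm2 to mcm7 did not overlap between groups: mcm5 was at 46.9, 43.0 and 39.2 CPM in Drug against 13.2, 22.4 and 27.3 CPM in SBM, and mcm6 was at 48.8, 37.5 and 39.7 CPM in Drug compared with 11.2, 19.4 and 25.7 CPM in SBM. The log2 fold changes were 1.03 (edgeR adjusted p = 0.196) and 1.16 (edgeR adjusted p = 0.206), and those of mcm2, mcm3, mcm4 and mcm7 were 1.03, 1.16, 0.88 and 0.75. The FM libraries, at 8.46 to 13.0 CPM for mcm5, were all below SBM 1.

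The replication signal differed by library. The median log2(CPM + 1) of the list was 3.63, 2.92 and 2.84 in Drug and 2.2, 3.2 and 3.04 in SBM, so the groups overlapped at the level of the list, and the same-number medians were 1.82, 0.01 and 0.15. The median log2 fold change was 0.31 without Drug 1, 0.39 without SBM 1 and 0.98 without SBM 2.

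Mitosis genes followed the same pattern less evenly, with 59 of 61 positive (median 0.66), but only 2 higher and 0 lower without overlap and none past the threshold. The same-number medians were 3.44, -0.47 and -0.20, so the pair numbered 1 alone was positive. The proliferation marker mki67 was at 80.6, 47.5 and 48.5 CPM in Drug against 45.6, 39.99 and 33.96 CPM in SBM (log2 fold change 0.56, edgeR adjusted p = 0.381). The ubiquitin-conjugating enzyme ube2c, which acts at anaphase, was at 17.8, 7.98 and 4.32 CPM in Drug compared with 3.09, 7.75 and 3.34 CPM in SBM, and these overlapped. The spindle checkpoint gene bub3 had a log2 fold change of 0.49 (edgeR adjusted p = 0.289). The median was 0.01 without Drug 1, 0.26 without SBM 1, 1.5 without SBM 2, 0.99 without Drug 3 and 0.40 in the fit to log2(FPKM + 1).

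**Figure D5:**
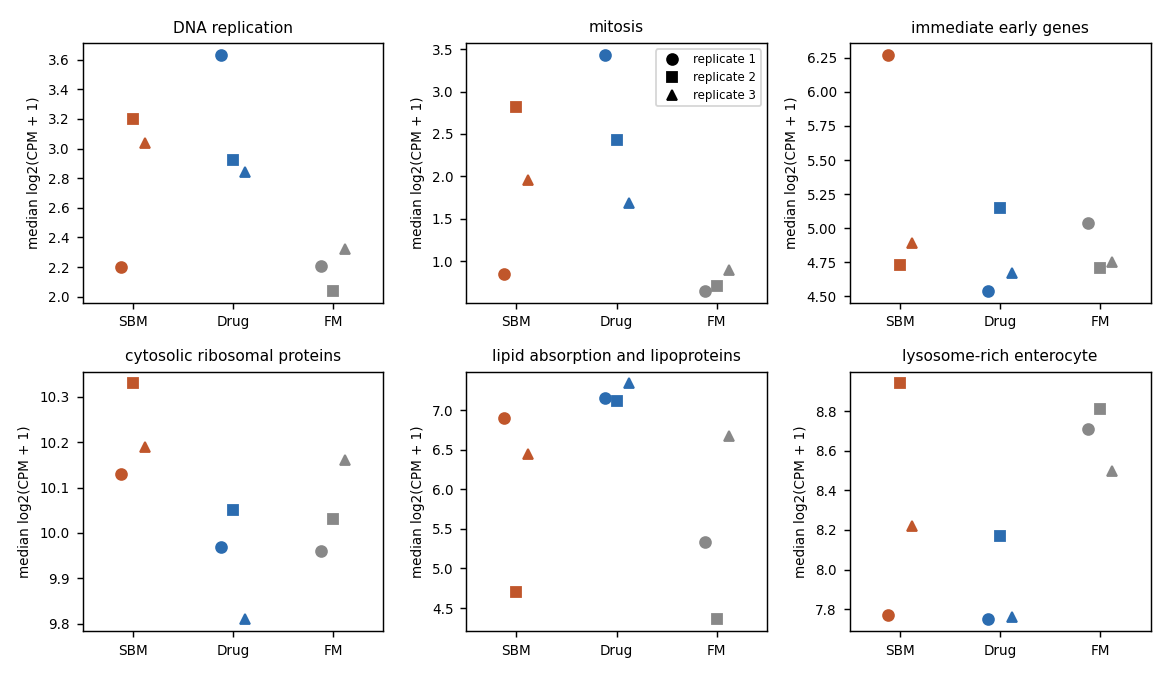
Median log2(CPM + 1) over the members of 6 gene lists in each of the 9 libraries, with the marker shape giving the replicate number and a separate vertical scale in each panel. SBM 1 is low for mitosis (0.85) and high for immediate early genes (6.27), and SBM 2 is low for lipid absorption (4.70). After TMM scaling the Drug libraries lie below all SBM libraries for ribosomal proteins (9.81 to 10.05 against 10.13 to 10.33).

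Fat absorption genes lay higher in Drug, with 23 of 30 positive (median 0.53), 7 higher and 0 lower without overlap, and none past the threshold. The binding protein fabp2 was at 6248, 5111 and 6598 CPM in Drug against 2994, 782 and 2486 CPM in SBM (log2 fold change 1.52, edgeR adjusted p = 0.240), and apoeb, an apolipoprotein, was at 481, 1079 and 1775 CPM in Drug compared with 246, 26.9 and 139 CPM in SBM (log2 fold change 3.02, edgeR adjusted p = 0.380). SBM 2 was the lowest of the 6 libraries for both, and fabp2 was at 402 to 836 CPM in FM. The median log2(CPM + 1) of the list was 7.12 to 7.34 in Drug and 4.70 to 6.90 in SBM. Its summed level overlapped, at 20340, 17680 and 23620 CPM in Drug against 21220, 6522 and 13450 CPM in SBM. In FM the sum was 4762 to 7882 CPM. The same-number medians were -0.06, 1.41 and 0.67, and the median log2 fold change was 0.27 without SBM 2 and 0.96 without SBM 1. Sterol biosynthesis, with 25 of 30 positive (median 0.41), had 0 members without overlap in either direction, and its median was 0.00 without Drug 1, 0.13 without SBM 2, 0.64 without Drug 2 and 0.63 without SBM 1.

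Markers of protein-absorbing cells mostly had negative signs, but few separated the groups. Among lysosome-rich enterocyte markers 14 of 19 were negative (median -0.35), with 1 higher and 2 lower without overlap. The 1 higher was the creatine enzyme gene gatm, described above. Same-number medians of the list were 0.30, -0.57 and -0.56, so the pair numbered 1 was positive. The endocytic receptor lrp2b was at 1116, 755 and 952 CPM in Drug against 1628, 2296 and 2040 CPM in SBM (log2 fold change -1.08, edgeR adjusted p = 0.126). Its partner cubn was at 904 to 1109 CPM in the Drug libraries but 895, 3496 and 1852 CPM in SBM, so SBM 1 lay just below the lowest Drug library and the other SBM libraries above all of them. The summed level of the list was 12460 to 16790 CPM in Drug against 13830, 31510 and 19840 CPM in SBM, and the median was -0.04 without SBM 2, -0.54 without Drug 1 and -0.18 in both fits to FPKM. The part of this cell type in the fat absorption and lysosome differences was not tested.

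Amino acid and peptide transport had 17 of 26 negative (median -0.18), with 1 higher and 4 lower without overlap. The proton-coupled amino acid transporter slc36a1 was at 82.7, 91.3 and 81.4 CPM in Drug compared with 132, 160 and 136 CPM in SBM (log2 fold change -0.74, edgeR adjusted p = 0.133), and the high-affinity peptide transporter slc15a2 was at 948 to 1553 CPM in Drug against 1778 to 2553 CPM in SBM (log2 fold change -0.75, edgeR adjusted p = 0.228). The cystine transporter subunit slc3a1 had a log2 fold change of -0.99 (edgeR adjusted p = 0.205). These stood opposite to slc15a1a, the low-affinity transporter described above. The list median was 0.02 without SBM 1, -0.04 without Drug 1, -0.01 and -0.07 when log2(FPKM + 1) and log2(FPKM + 0.1) were fitted, and -0.30 with a stricter filter.

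No gene of the barrier and immune lists passed the threshold. Of 35 tight and adherens junction genes 24 were negative (median -0.14), and 9 were lower and 2 higher without overlap. The claudin cldn5a was at 3.72, 7.15 and 5.96 CPM in Drug compared with 13.0, 10.5 and 13.2 CPM in SBM (log2 fold change -1.13, edgeR adjusted p = 0.174), and cldn23l was at 5.32, 13.7 and 8.69 CPM in Drug against 23.5, 29.2 and 21.9 CPM in SBM (log2 fold change -1.43, edgeR adjusted p = 0.203). Both claudins were clear of overlap, while the junctional adhesion gene jam2a was higher in Drug (log2 fold change 0.42, edgeR adjusted p = 0.311). The list median was -0.02 and -0.03 when log2(FPKM + 1) and log2(FPKM + 0.1) were fitted, and -0.22 without Drug 2.

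Among 48 genes of NF-kappaB and pattern recognition 32 were negative (median -0.10), with 8 lower and 2 higher without overlap and none past the threshold. The fish Toll-like receptor tlr18 was at 3.33, 6.61 and 8.57 CPM in Drug compared with 14.7, 16.7 and 18.8 CPM in SBM (log2 fold change -1.44, edgeR adjusted p = 0.173). The NF-kappaB subunit rela was at 36.4 to 47.0 CPM in Drug against 56.8 to 81.4 CPM in SBM (log2 fold change -0.59, edgeR adjusted p = 0.258). The deubiquitinase cyldb, which damps the same pathway in mammals, was lower as well (log2 fold change -0.86, edgeR adjusted p = 0.194). Inflammatory cytokines and their receptors had 19 of 43 positive (median -0.03), with 6 higher and 2 lower without overlap. Among the higher was tgfb3, described above, which had the smallest p of this list. The gut-homing chemokine receptor ccr9a was at 24.5 to 45.4 CPM in Drug compared with 58.6 to 72.4 CPM in SBM (log2 fold change -0.83, edgeR adjusted p = 0.218). Interferon and antigen presentation genes had 25 of 35 negative (median -0.11), with 4 lower and 1 higher without overlap, among them stat1a at 95.8 to 127 CPM in Drug against 143 to 274 CPM in SBM (edgeR adjusted p = 0.244). The NF-kappaB median was 0.02 and 0.03 when log2(FPKM + 1) and log2(FPKM + 0.1) were fitted and -0.17 without SBM 3, and the cytokine median 0.07 without SBM 1 and 0.09 without SBM 2. The interferon median was 0.05 without SBM 2, -0.20 without Drug 2 and -0.03 in both fits to FPKM.

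Heat shock proteins had 22 of 32 negative (median -0.14), with 2 lower and 1 higher without overlap, and the median was 0.08 without SBM 1 and 0.01 in both fits to FPKM. The abundant cytosolic chaperone hsp90ab1 was at 2621, 3366 and 3047 CPM in Drug compared with 4090, 4569 and 4354 CPM in SBM (log2 fold change -0.53, edgeR adjusted p = 0.174), whereas the collagen chaperone serpinh1b was on the higher side (log2 fold change 0.73, edgeR adjusted p = 0.179). In the Wnt list 19 of 40 were positive (median -0.03, and 0.06 without SBM 2), with 4 higher and 5 lower without overlap. Among the higher, its proliferation target myca was at 4.58, 4.49 and 5.05 CPM in Drug against 1.95, 1.92 and 1.49 CPM in SBM (log2 fold change 1.4, edgeR adjusted p = 0.175).

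No gene of respiration or fat use passed. Oxidative phosphorylation had 47 of 66 positive (median 0.07) and fatty acid oxidation 23 of 39 (median 0.03), each with 0 to 2 members without overlap in a direction. Fatty acid and triglyceride synthesis had 18 of 29 positive (median 0.18), brush border hydrolases 11 of 16 (median 0.07), xenobiotic metabolism 12 of 27 (median -0.05) and mucin and goblet cell genes 9 of 18 (median 0.01). The brush border meprin mep1ba was at 129 CPM in Drug 2 and at 0.201 to 7.78 CPM in the other 5 Drug and SBM libraries. Without SBM 1 and without SBM 2 the median was 0.31 and -0.08 for brush border hydrolases, 0.09 and -0.03 for xenobiotic metabolism, 0.10 and -0.05 for mucin and goblet cells, 0.01 and 0.12 for oxidative phosphorylation, and 0.00 and 0.07 for fatty acid oxidation. The synthesis median was 0.03 without SBM 2, 0.08 without Drug 1, 0.35 without SBM 1, and 0.28 and 0.36 when log2(FPKM + 1) and log2(FPKM + 0.1) were fitted.

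Markers of the gut wall other than epithelium were lower in Drug in part. Smooth muscle markers had 19 of 22 negative (median -0.50), with 7 lower and 0 higher without overlap and none past the threshold. The muscle myosin myh11a was at 1179, 2077 and 1333 CPM in Drug compared with 2968, 4793 and 2582 CPM in SBM (log2 fold change -1.17, edgeR adjusted p = 0.260), and the intermediate filament gene desmb was at 962, 1457 and 864 CPM in Drug against 1865, 2866 and 1473 CPM in SBM, nearly touching. SBM 2 was the highest library for both, and the list median was -0.24 without it. The 2 most abundant muscle markers, acta2 and tagln, overlapped between groups (log2 fold changes -0.65 and -0.46). Endothelial markers had 17 of 21 negative (median -0.26), with 6 lower and 0 higher without overlap. The lymphatic receptor flt4 was at 6.65 to 7.75 CPM in Drug compared with 12.1 to 12.7 CPM in SBM (log2 fold change -0.78, edgeR adjusted p = 0.231). The 2 most abundant endothelial markers, plvapa and kdrl, overlapped between groups (log2 fold changes -0.26 and -0.42). The endothelial median was -0.10 and -0.16 when log2(FPKM + 1) and log2(FPKM + 0.1) were fitted.

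Markers of other organs did not separate the groups. The summed level of 7 pancreatic enzyme genes, of which 5 were tested, was 1651, 2349 and 510.4 CPM in Drug against 3146, 625.2 and 618.6 CPM in SBM. The summed level of the hepatocyte list was 81.3 to 103 CPM in Drug compared with 94.3 to 122 CPM in SBM. The pancreas median log2 fold change was 0.04, but 1.27 without SBM 1 and -0.34 without SBM 2. The hepatocyte median was 0.17, with 0.37 without SBM 1 and -0.06 without SBM 2. Lists of T and NK cells (11 of 18 positive, median 0.01), macrophages and granulocytes (16 of 25 positive, median 0.07), and B and plasma cells (6 of 19 positive, median -0.11) held 0 to 1 genes higher and 1 to 2 lower without overlap. Matrix and fibroblast markers (9 of 34 positive, median -0.15), enteric neurons and glia (9 of 27, median -0.19), enteroendocrine cells (11 of 28, median -0.05) and erythrocytes (4 of 9, median -0.07) held 0 to 4 members without overlap in a direction. Several of these medians turned with 1 library. Without SBM 1 and without SBM 2 they were -0.34 and 0.07 for B and plasma cells, -0.16 and 0.24 for T and NK cells, -0.05 and 0.13 for macrophages and granulocytes, 0.35 and -0.20 for enteroendocrine cells, 0.08 and 0.18 for erythrocytes, and -0.16 and -0.08 for matrix and fibroblasts. Mitochondrially encoded genes were positive in 12 of 13 (median 0.36), with 2 higher and 0 lower without overlap. The part of these cell and quality differences in the gene results was not tested.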

How the data were processed

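RNA was isolated in TRIzol and sequenced from VAHTS Universal V6 libraries, per the labels' protocols. Tools listed in the submitters' processing notes, with no roles, are DESeq2, HTSeq, HISAT2, fastp and R 3.2.0, along with the mouse build mm10. The symbols are those of fish, so the reference is unknown from the sources used here. No coordinates or sequences are printed. Hybrid reads that differ from the reference can be undercounted, and counting is not stated to use strand.

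The deposited counts are whole, unnormalized reads per gene, and the 9 single-library files equal the columns of the count table. The authors' FPKM is proportional to count over library total in all 15780 genes with enough reads to compare (relative tolerance 1e-06). Of 22344 genes 8101 have only a LOC number and hold 27.72% of counts.

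Counts were tested with edgeR 4.0.16 (R 4.3.3; filterByExpr, TMM, robust quasi-likelihood F test, two-sided, Benjamini-Hochberg over 17731 genes, threshold 0.05) in 1 model of 9 libraries and 3 groups, with 6 residual degrees of freedom and the contrast Drug minus SBM. The SE was derived by dividing the log2 fold change by the root of F. CPM is TMM-scaled on the tested genes. Same-number differences are of log2 CPM with a prior count of 2. Libraries of a group differed far beyond sampling noise (chi-square per degree of freedom 64.8 to 340.7), so none was treated as a copy. The test was checked on simulated counts.

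Named genes are those past the threshold, in each direction the 10 smallest p and the 5 largest differences consistent over numbers (non-LOC, mean of at least 5 CPM, no overlap), up to 5 by the fit with replicate numbers as a block, and up to 3 per list (plus 2 abundant genes per marker list). This gave 171 genes, of which the text describes a part. The genes singled out for 1 library (fosab, ldha, trib3, mep1ba, cubn), gpx1a, mgst2, the peroxiredoxins and other pathway members without overlap were partly chosen after their values were seen. So were ccn1, ccn2a, ccn1l2, amotl2a, sesn2 and rps6kb1b. The comparison and the 43 gene lists were chosen with earlier results of these data known. Alternatives were DESeq2 1.42.0, RLE factors, other filters, the 6 libraries alone, a replicate block, each library left out, and limma 3.58.1 on log2(FPKM + 1) and log2(FPKM + 0.1).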

Additional observations from a re-analysis of the deposited data

How the results depend on the processing

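The 7 genes past the threshold were the same with RLE factors, with no filter and with a stricter filter (mean of at least 5 CPM). The count was 614 with DESeq2 (all 7 included), 4 with log2(FPKM + 1) (2 lower, among them mknk2b and osgn1, and 2 higher), 0 with log2(FPKM + 0.1), and 0 on the 6 libraries alone. Leaving out each library in turn gave 0 to 36 calls. The genes named in the text kept their sign in every setting tried. This was not looked at for ccn1, ccn2a, ccn1l2, amotl2a, sesn2, rps6kb1b, tagln, plvapa and kdrl. The fit to log2(FPKM + 0.1) moved the median log2 fold change of all genes to 0.11.

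The replicate numbers were not shown to pair the libraries: deviations from group means correlated at 0.074, 0.191 and 0.385 for equal numbers and at -0.205 to -0.001 for unequal ones, so each library correlated best with its own number, a hint from the data and not from the design. With a replicate block the 9-library fit called 1 gene, ddit4 (adjusted p = 0.0115, edgeR), and none of the 7, with 3038 genes at an unadjusted p under 0.05, and the 6-library block fit called 0, with 2555. Total counts were nearly equal across libraries, and 3 libraries a group set the precision.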
